A study of Homo sapiens with 2 samples.

Results

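The genes described here fold, oxidise, inspect and destroy proteins in the endoplasmic reticulum (ER), and sense when that work falls behind. They were a list of 38 genes of ER folding, disulfide formation, degradation and sensing, named by function, with no threshold on the measured values. The list was drawn up with earlier results of these arrays known, so its counts are a description and not independent evidence of a direction. Of the 38 genes, 35 were measured, out of 18377 genes in all. A gene counted as measured when at least 1 probe set was annotated to it alone. The probe sets that name PDIA3 and TXNDC5 also name other genes, and no probe set was annotated to KDELR2, so these 3 genes have no level here.

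The study set out to find mechanisms of resistance to an inhibitor of the receptor tyrosine kinase MET by comparing a sensitive cell line with a resistant subline. EBC1 is an established human lung carcinoma line of squamous origin that depends on MET, labelled as the wild type. EBC1-R was derived from EBC1 by growth in increasing concentrations of the MET inhibitor PHA-665752, and the surviving cells were kept in 3 µM inhibitor. Each line was measured on 1 one-colour whole-transcript array, so there were 2 arrays. Both lines were grown with fetal bovine serum, in one of 2 media that the labels name without saying which served which line. EBC1-R is a single selected subline, and whether it came from 1 clone is not stated. Because it was kept in the drug, resistance and exposure to the drug cannot be told apart. There were no replicates, so no value has an error, no test between the lines was possible, and each difference describes these 2 arrays alone.

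Proteins that enter the ER are bound by the chaperone BiP, by J-domain co-chaperones and by lectins that read their sugar chains, while protein disulfide isomerases form and reshuffle their cysteine bonds. Proteins that fail to fold are pulled back to the cytosol and degraded by the proteasome. When unfolded proteins accumulate, the sensors IRE1, PERK and ATF6 start the unfolded protein response, which raises chaperones, isomerases and degradation factors through the transcription factors XBP1, ATF6 and ATF4.

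Levels are the deposited values, read as log2 intensities, and differences are EBC1-R minus EBC1 on the log2 scale. In EBC1-R, 34 of the 35 measured genes were higher, compared with 43.3% of all genes. A total of 14 were at least 2-fold higher, compared with 1.26% of all genes, and none was at least 2-fold lower, compared with 0.887%. At a threshold of 1.5-fold, 24 of the 35 were higher, against 4.41% of all genes. The median difference of the 35 genes was 0.84, which is 1.79-fold, while the median over all genes was -0.03. Of all differences in the table, 95% lay between -0.65 and 0.75, and 18 of the 35 genes lay above that range. In a mass of cells, a shift in the make-up of the culture and a shift in RNA per cell cannot be told apart.

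Differences vary with the level of a gene, so the background was also taken among the 9189 genes whose mean level over both arrays reached the median of such means, 7.28. Of the 35 genes, 34 did so, and ERO1B alone did not. Among those 9189 genes, increases of 2-fold or more made up 1.77%, decreases of that size 1.51%, and increases of any size 49.1%. Of the 34 chaperone and response genes above that level, 13 were at least 2-fold higher, and their median difference was 0.78 against -0.01 for the 9189.

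**Figure D1:**
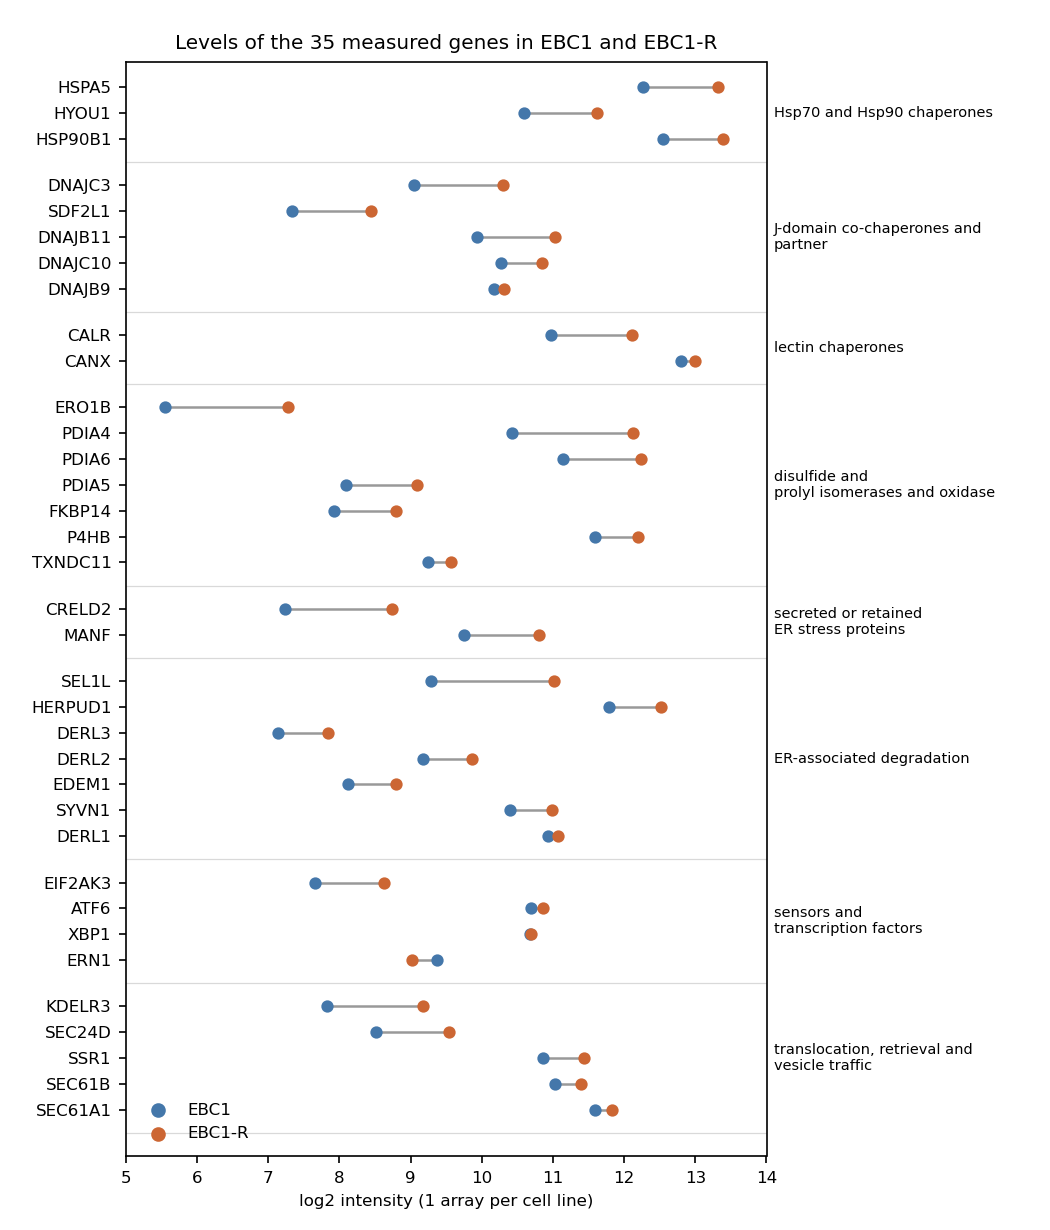
Log2 intensity of each of the 35 measured genes on the EBC1 array (blue) and the EBC1-R array (orange), grouped by role, with a line joining both values of a gene. EBC1-R lies to the right for 34 genes and to the left for ERN1, while the points of XBP1 (10.68 and 10.69) nearly coincide. Each point is 1 array, with no error.

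**Figure D2:**
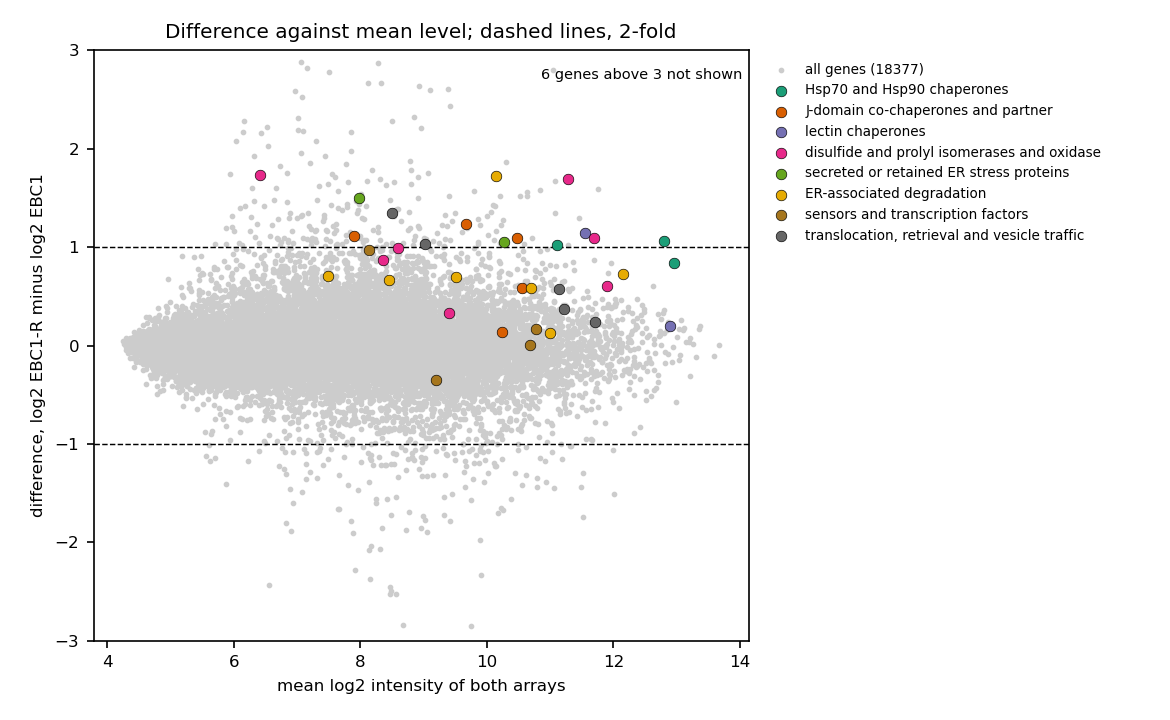
Difference between the lines against the mean log2 intensity of both arrays, for all 18377 genes (grey) and the 35 measured genes (coloured by role). The dashed lines mark 2-fold, and 14 of the 35 coloured points lie above the upper line.

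The promoters of these genes were searched for elements already known from the unfolded protein response. A list of response genes may hold such elements because of how it was chosen. The counts are therefore a description and not independent evidence. RefSeq promoter windows (GRCh38.p14), from 250 bases before to 50 bases after a gene's start, were found for 32 of the 38 genes, in 40 windows. No window was found for DERL1, DERL3, FKBP14, SEC24D, PDIA3 or KDELR2. Each window was searched on both strands for 4 motifs. CCAAT and CCACG separated by 9 unspecified bases form the ER stress response element (ERSE), known as a binding element of the factor NF-Y with ATF6 or XBP1. ATTGG and CCACG separated by 1 unspecified base form its compact version, ERSE-II. TGACGTGG is the core of the unfolded protein response element (UPRE). CCACG is the half-site that lies within both ERSE forms and, on the opposite strand, within TGACGTGG, so the counts of the motifs overlap.

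The exact ERSE stood in a window of 8 of the 32 genes, against 0.0916% of all 27305 genes with a window (0.0769% of the 35116 windows). ERSE-II was found in 3 of the 32 genes and in 0.0696% of all genes (0.0541% of windows). Its 3 carriers differed from the 8 carriers of ERSE, so 11 of the 32 genes held one of these forms, against 0.161% of all genes. The UPRE core occurred in 5 of the 32 genes and in 0.927% of all genes (0.729% of windows). The half-site alone was common: 26 of the 32 genes had it, as did 42.1% of all genes (38.1% of windows). These are matches of letters, which show neither that a factor binds there nor why a gene differed.

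The ERSE matches are shown because they recur in the promoters of chaperones that were higher in EBC1-R and also in those of CANX and XBP1, which differed little. Each is read so that the motif runs as spelled above, with its specified bases in capitals, and the strand printed is the one so read.
HSPA5, chr9:125241386-125241414, minus strand: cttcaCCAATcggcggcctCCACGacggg
HSP90B1, chr12:103930211-103930239, plus strand: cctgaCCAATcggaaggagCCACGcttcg
HSP90B1, chr12:103930316-103930344, minus strand: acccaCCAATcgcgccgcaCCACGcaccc
CALR, chr19:12938379-12938407, minus strand: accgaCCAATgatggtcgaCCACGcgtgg
PDIA6, chr2:10812848-10812876, minus strand: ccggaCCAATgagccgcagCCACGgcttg
CRELD2, chr22:49918549-49918577, minus strand: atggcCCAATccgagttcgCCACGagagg
ERO1B, chr1:236282178-236282206, plus strand: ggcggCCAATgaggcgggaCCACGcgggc
CANX, chr5:179698773-179698801, plus strand: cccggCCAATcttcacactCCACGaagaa
XBP1, chr22:28800598-28800626, minus strand: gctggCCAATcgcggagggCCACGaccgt

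The ERSE-II matches are shown beside them, since the chaperones HYOU1 and SDF2L1 carry this form in place of the longer element.
HYOU1, chr11:119057375-119057395, plus strand: ctgggATTGGaCCACGtcacg
HYOU1, chr11:119057269-119057289, plus strand: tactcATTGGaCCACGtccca
SDF2L1, chr22:21642109-21642129, minus strand: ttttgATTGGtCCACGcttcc
HERPUD1, chr16:56932020-56932040, plus strand: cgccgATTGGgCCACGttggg

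The UPRE core is shown for the KDEL receptor gene KDELR3 and the reductase gene DNAJC10, which held no ERSE form. It was also found in TXNDC11, in TXNDC5 and, overlapping the first ERSE-II match above, in HYOU1.
KDELR3, chr22:38468045-38468062, minus strand: ggcggTGACGTGGccagg
DNAJC10, chr2:182716127-182716144, minus strand: taggtTGACGTGGcggtg

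For HYOU1 and HSPA5 the 250 bases before the start are given whole on the gene's strand, to show where the matches lie (capitals, the specified bases of a match). HYOU1 held 3 matches in this stretch and HSPA5 held 1.
HYOU1, chr11:119057206-119057455, minus strand: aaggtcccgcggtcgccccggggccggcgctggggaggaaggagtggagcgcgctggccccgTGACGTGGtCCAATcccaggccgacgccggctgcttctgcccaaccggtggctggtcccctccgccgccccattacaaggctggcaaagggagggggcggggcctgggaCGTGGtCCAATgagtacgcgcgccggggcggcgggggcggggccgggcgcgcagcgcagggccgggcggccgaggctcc
HSPA5, chr9:125241344-125241593, minus strand: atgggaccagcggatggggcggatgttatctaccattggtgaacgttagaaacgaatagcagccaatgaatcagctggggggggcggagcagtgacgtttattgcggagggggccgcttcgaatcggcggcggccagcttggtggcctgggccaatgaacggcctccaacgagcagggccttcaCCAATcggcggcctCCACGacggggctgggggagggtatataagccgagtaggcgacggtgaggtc

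All 11 carriers of an ERSE form were measured. Their differences had a median of 1.06 and ran from 0.01 in XBP1 to 1.73 in ERO1B, and 7 of the 11 were at least 2-fold higher. The 17 measured genes with a window but none of the 3 longer motifs had a median of 0.66, from -0.35 to 1.72. Of these 17, 5 were at least 2-fold higher. Both 2-fold counts stand beside 14 of all 35 measured genes and 1.26% of all genes. For the 3 measured genes with the UPRE core alone the median was 0.58. The ranges overlap almost wholly, and the difference between the classes was not tested. Large differences occurred with no exact match of the 3 longer motifs in the window, in SEL1L and PDIA4, and small ones with a match, in CANX and XBP1.

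**Figure D3:**
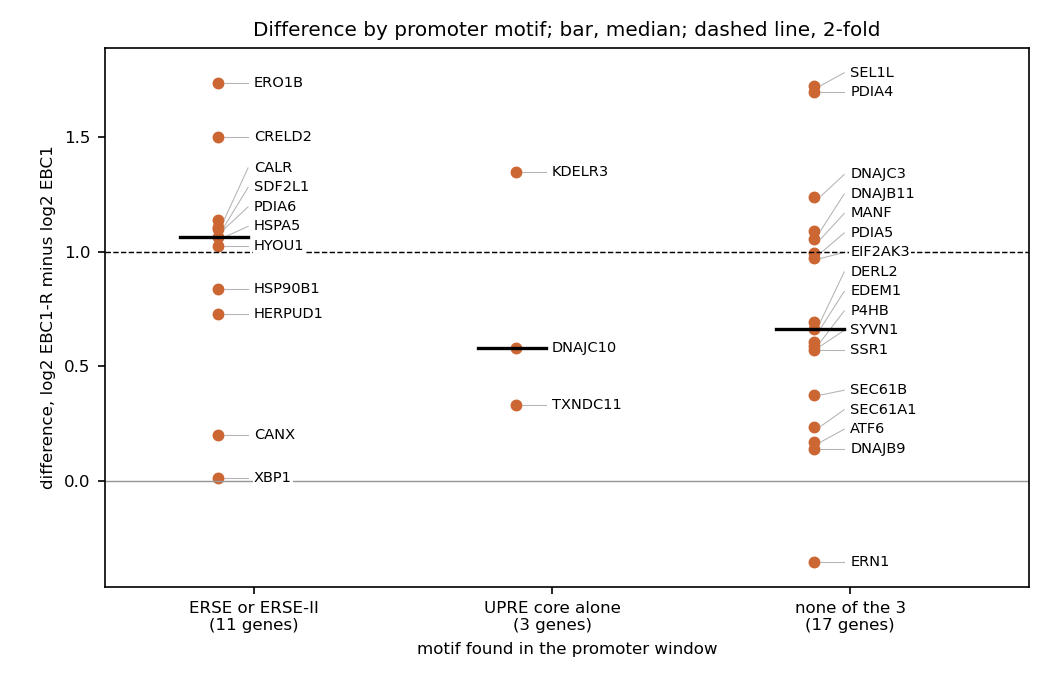
Difference between the lines (log2 EBC1-R minus log2 EBC1) for the 31 measured genes that have a promoter window, by the motif found in it. Points are genes, bars are medians (1.06, 0.58 and 0.66 from left to right), and the dashed line marks 2-fold. The spread within each class is larger than the gaps between the medians.

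The counts of this and the following groups stand beside 43.3% of all genes that were higher and 1.26% at least 2-fold higher. Among genes with a mean level of at least 7.28, these shares were 49.1% and 1.77%. The main chaperones of the ER lumen were all higher in EBC1-R. HSPA5, which encodes BiP, the Hsp70 that binds nascent chains and holds the sensors inactive, went from 12.26 in EBC1 to 13.32 in EBC1-R, which is 2.09-fold higher. HYOU1, which exchanges the nucleotide of BiP and is itself a large Hsp70 relative, went from 10.60 to 11.62, 2.04-fold higher. HSP90B1, the ER Hsp90 also called GRP94, stood at 12.54 and 13.38, or 1.79-fold higher. BiP and its exchange factor thus passed 2-fold, and the Hsp90 did not.

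Of the J-domain proteins that deliver clients to BiP, and a partner of one of them, 3 of 5 were at least 2-fold higher. DNAJC3, also known as P58IPK, went from 9.05 to 10.29, a difference of 1.24 or 2.36-fold. SDF2L1, which forms a complex with DNAJB11, was at 7.34 and 8.45 (2.16-fold), and DNAJB11 itself was at 9.94 and 11.03 (2.13-fold). These partners differed by nearly the same amount, 1.11 and 1.09. DNAJC10, a J-domain protein that also reduces disulfides of proteins bound for degradation, differed by 0.58, from 10.27 to 10.85. DNAJB9, which recruits BiP to the sensor IRE1, differed least in this group, with levels of 10.17 and 10.31 and a difference of 0.14.

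The lectin chaperones, which hold glycoproteins until their sugars are trimmed, differed from each other. Calreticulin (CALR), the soluble form, went from 10.97 to 12.11 and was 2.20-fold higher. Calnexin (CANX), the membrane-bound form, was at 12.80 and 12.99, a difference of 0.20. Both promoters held an exact ERSE.

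All 7 measured genes of disulfide formation and prolyl isomerisation were higher in EBC1-R, with a median difference of 0.99, and 3 of them at least 2-fold. PDIA4, a disulfide isomerase also called ERp72, went from 10.43 to 12.12, a difference of 1.70 or 3.24-fold. Its increase ranked 53 among the 18377 genes. PDIA6, an isomerase that works with BiP, was at 11.14 and 12.24, or 2.14-fold higher. PDIA5 reached 9.09 from 8.10, a difference of 0.99 that is just short of 2-fold. P4HB, the classical protein disulfide isomerase and a subunit of collagen prolyl hydroxylase, was at 11.59 and 12.20, or 1.52-fold higher. It was the single gene of the list with 2 probe sets, which differed by 0.48 and 0.73 in the same direction. TXNDC11, a thioredoxin-domain protein, was 1.26-fold higher, from 9.24 to 9.57.

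ERO1B, an oxidase that passes oxidising power to the disulfide isomerases, was the 1 gene of the 35 with a mean level below 7.28. It went from 5.55 to 7.28, a difference of 1.73 or 3.33-fold. The deposited table has no detection calls, so its value in EBC1 may be at background. As deposited, this was the largest difference of the 35. With 16 added on the linear scale before log2 it was 1.45, under 3-fold and below those of SEL1L (1.70) and PDIA4 (1.68). FKBP14, a prolyl isomerase of the ER that acts on collagen, was at 7.93 and 8.79, or 1.82-fold higher.

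MANF and CRELD2, small proteins that leave or are held in the ER under stress, were both at least 2-fold higher. CRELD2 went from 7.23 to 8.73, or 2.83-fold higher. MANF, which binds BiP and acts as a trophic factor outside cells, was at 9.74 and 10.80, or 2.08-fold higher.

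Genes of ER-associated degradation were all higher, with a median difference of 0.69, but 1 of 7 passed 2-fold. SEL1L, the adaptor that stabilises the ubiquitin ligase SYVN1 (HRD1), had levels of 9.28 and 11.01, a difference of 1.72 or 3.30-fold. The ligase SYVN1 itself was at 10.40 and 10.99, a difference of 0.59. The members of this one complex therefore differed by unequal amounts on these arrays. HERPUD1, which helps assemble the complex, was 1.65-fold higher, from 11.79 to 12.52. EDEM1, which marks glycoproteins for disposal by trimming mannose, was 1.58-fold higher, from 8.12 to 8.79.

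The derlins, membrane proteins through which substrates leave the ER, were unequal as well. DERL3 was at 7.14 and 7.84 and DERL2 at 9.17 and 9.86, or 1.63-fold and 1.62-fold higher. DERL1 differed by 0.13, from 10.94 to 11.06.

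The transcripts of the 3 sensors and of XBP1 had a median difference of 0.09, and none passed 2-fold. EIF2AK3, which encodes the kinase PERK, differed most, with levels of 7.65 and 8.62, or 1.96-fold higher. ATF6, cleaved in the Golgi to free a transcription factor, was at 10.69 and 10.86, a difference of 0.17. XBP1, whose mRNA is spliced by IRE1, was at 10.68 and 10.69, a difference of 0.01. ERN1, which encodes IRE1, was the 1 gene of the 35 that was lower in EBC1-R, from 9.37 to 9.01 or 1.28-fold. IRE1 and PERK are activated by phosphorylation, ATF6 by cleavage and XBP1 by splicing of its mRNA. A single intensity per gene does not report any of these steps.

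All 5 measured genes that carry proteins into the ER and onward were higher, with a median difference of 0.57, and 2 of them at least 2-fold. KDELR3, a receptor that returns escaped chaperones from the Golgi by their carboxy-terminal signal, was at 7.83 and 9.18, a difference of 1.35 or 2.55-fold. SEC24D, a cargo adaptor of the COPII coat that forms vesicles leaving the ER, was at 8.51 and 9.54, or 2.05-fold higher. SSR1, a subunit of the translocon-associated complex, was 1.49-fold higher, from 10.86 to 11.43. The channel subunits differed less: SEC61B was at 11.03 and 11.40, and SEC61A1 at 11.59 and 11.83, differences of 0.37 and 0.24.

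The count of 14 rests on a threshold that falls among many of the values. A total of 8 genes differed by 1 to 1.2 log2 units, and 4 by 0.8 to 1, namely PDIA5, EIF2AK3, FKBP14 and HSP90B1. PDIA4, SEL1L and ERO1B were the 3 genes at least 3-fold higher as deposited, ERO1B not with the pseudocount, compared with 0.354% of all genes.

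For comparison, 8 other lists that share no gene with the 35 were described in the same way. They too were drawn up with earlier results of these arrays known. A gap in medians may thus come partly from the choice of genes. Of the 8 lists, 6 hold genes of the ER and the early secretory pathway. Another 1 holds ATF4, PPP1R15B and transcripts downstream of PERK and ATF4, and 1 holds heat shock proteins outside the ER. The counts of every list stand beside 43.3% of all genes that were higher and 1.26% that were at least 2-fold higher. Among genes with a mean level of at least 7.28, 49.1% were higher. Further ER folding enzymes were higher in 20 of 25 genes, with a median difference of 0.23 and none past 2-fold. Those that differed most were ERP44, which retains oxidases in the early secretory pathway (10.45 and 11.44, a difference of 0.99), SIL1, a second exchange factor of BiP (7.73 and 8.66), and ERO1A, the widely expressed paralog of ERO1B (11.26 and 12.13, or 1.82-fold). Genes of sugar transfer and glycan-based quality control were higher in 17 of 18, with a median of 0.31. UGGT1, which re-glucosylates misfolded glycoproteins, was 1.85-fold higher (9.48 and 10.37), the cargo lectin LMAN1 1.79-fold (11.54 and 12.38) and the oligosaccharyltransferase subunit OSTC 1.70-fold (10.38 and 11.14).

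The other degradation genes were higher in 11 of 19, with a median of 0.04 and none past 2-fold in either direction. ERLEC1 and OS9, lectins that bring glycoproteins to SEL1L, were 1.87-fold (8.38 and 9.28) and 1.67-fold higher (10.47 and 11.20), and SELENOK was 1.54-fold higher (8.59 and 9.22). The lowest differences were in UBXN4 (-0.50), TMEM129 (-0.42) and RNF139 (-0.39), named after their values were seen.

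In the translocation and signal peptidase list 18 of 21 genes were higher, with a median of 0.35. SEC11C, a catalytic subunit of signal peptidase, was 2.09-fold higher (8.61 and 9.67), TRAM1 1.76-fold (10.69 and 11.50) and SSR3 1.69-fold (10.40 and 11.16). All 25 COPII and COPI genes were higher, each by less than 2-fold, with a median of 0.29. TMED9, a cargo receptor, differed most (9.11 and 10.00, or 1.84-fold), followed by SEC23B (9.99 and 10.64) and SAR1B (9.39 and 9.86).

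A further list of 8 genes held ER-resident sensors, the proteases that process them and the RNA ligase RTCB. Of these 8, 5 were higher and the median was 0.07. CREB3L2, a membrane-bound transcription factor related to ATF6, was 2.10-fold higher, from 8.31 to 9.39. MBTPS1, the protease that makes the first cut in ATF6, differed by 0.28 (10.60 and 10.88), and ERN2 by -0.21 (6.73 and 6.52).

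In the list of PERK and ATF4 output, which includes ATF4 itself and PPP1R15B, 12 of 20 genes were lower in EBC1-R. That share was near that of all genes, 55.5% of which were lower. All 20 had a mean level of at least 7.28, and of the 9189 genes at that level 4652 were lower. The median difference of the 20 was -0.19. SESN2 was 2.16-fold lower (10.38 and 9.28) and the serine synthesis enzyme PSAT1 1.85-fold lower (10.43 and 9.54). NUPR1, a stress-inducible nuclear protein, was 2.16-fold higher (7.43 and 8.54). Heat shock proteins outside the ER were higher in 14 of 16 genes with a median of 0.18. These include the mitochondrial HSPD1 and HSPE1. The list was led by DNAJB1 (1.91-fold, 8.85 and 9.79), HSPB1 (1.87-fold, 8.13 and 9.04) and DNAJB4 (1.53-fold, 8.17 and 8.78). None of the 8 lists was compared with the 35 genes by a test.

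**Figure D4:**
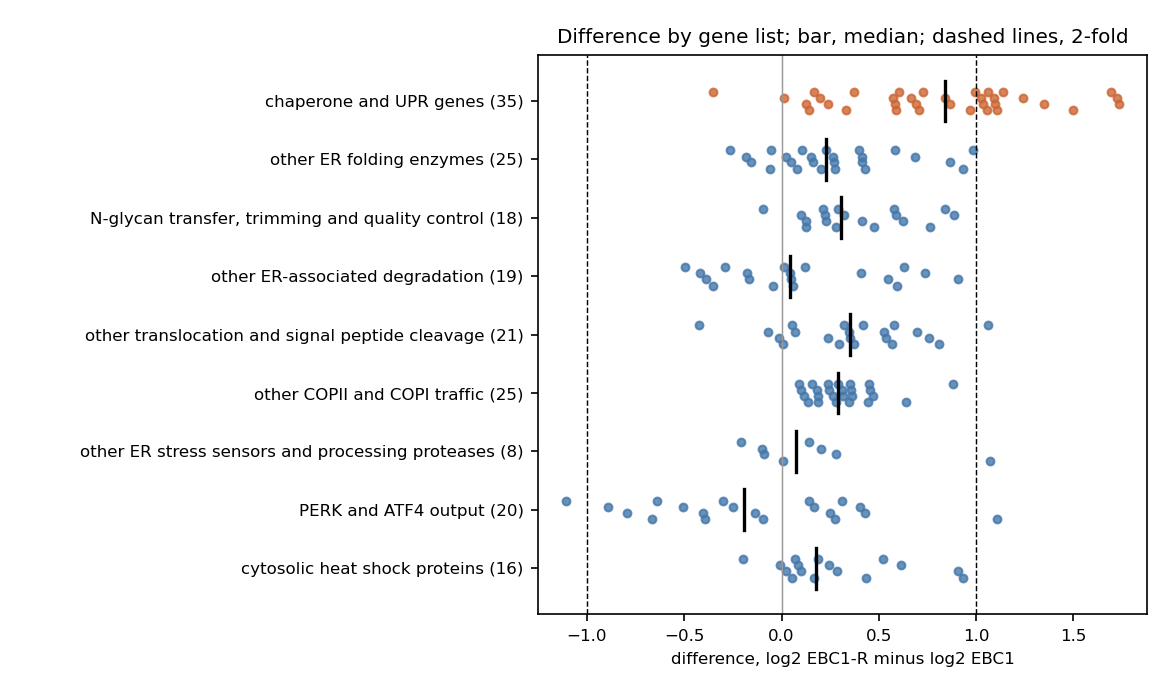
Difference between the lines for each measured gene of the chaperone and response list (orange, 35 genes) and of 8 other lists (blue), with the number of measured genes after each name. Bars are medians, from -0.19 for PERK and ATF4 output to 0.84 for the chaperone and response genes, and the dashed lines mark 2-fold. The list named cytosolic heat shock proteins includes the mitochondrial HSPD1 and HSPE1. All lists were drawn up with earlier results of these arrays known.

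The lines carried general epithelial transcripts. KRT8, KRT18, KRT19, EPCAM and CDH1 had levels from 11.33 to 12.83 in EBC1, and the 3 keratins among them were 1.72-fold to 1.86-fold lower in EBC1-R. Of the squamous markers measured, KRT5 (6.17 and 6.11), SOX2 and KRT14 had mean levels below 7.28. Fibroblast and endothelial markers, 12 genes in all, had levels of at most 7.64 in EBC1, and their summed linear intensities were 547 and 537 for fibroblast and 206 and 209 for endothelial genes (EBC1 first). The leukocyte marker PTPRC stood at 4.56 and 4.65, near the lowest values of the arrays (4.21 and 4.22), and the sum over 6 such markers, mostly CD68, was 2319 and 2989. Of the 9 plasma and B cell markers, which include DERL3, 7 had mean levels below 7.28, among them JCHAIN and MZB1, and the sum, mostly SDC1, was 2297 and 1422.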

How the data were processed

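The deposited table gives, for each of 28869 probe sets, 1 value on each array, read here on a log2 scale because the values run from 4.21 to 14.2. How the authors corrected, summarized and normalized them is not stated in the labels used here. Per the labels' protocols, 100 ng of total RNA was labelled with a whole-transcript kit. The labels name a different array design (HG-U133), but the probe identifiers match the annotation of a whole-transcript gene array. The sorted columns differed by at most 0.17, so changes shared by most genes are not visible. The 19310 probe sets with 1 gene symbol (1752 had several, 7807 none) were averaged per gene, giving 18377 genes. Gene identifiers matched RefSeq (GRCh38.p14) for 19279 of these probe sets, with no symbol changed. No level filter was applied. A gene was counted from 2-fold. The number of arrays limits the precision.

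The 38 genes, the role groups and the other lists were chosen with earlier results of these data known. All 38 genes were named, and from each other list of the pathway the 3 genes with the largest difference and any past 2-fold. Alternatives were quantile normalization, median centring, removal of a lowess trend (span 0.2), a pseudocount of 16, the brightest probe set, a mean-level filter, probe sets with several symbols, and thresholds of 1.5-fold and 3-fold. The counting was run on simulated data whose changes lay well past the threshold. That run checks the code and does not bear on genes near 2-fold. Python 3.11.15, pandas 2.3.3 and statsmodels 0.14.6 were used. A planned look at protein ends was not made, as no protein sequences were used here.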

Additional observations from a re-analysis of the deposited data

How the results depend on the processing

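The count of genes at least 2-fold higher depended on the threshold: 24 of the 35 passed 1.5-fold and 3 passed 3-fold, while over all genes 811 and 65 did so upward and 580 and 36 downward, against 231 and 163 at 2-fold. Under the 7 other settings that count lay between 13 and 15, none was 2-fold lower, and the median difference lay between 0.73 and 0.86. With probe sets naming several genes included, 36 of 37 listed genes were higher. Of 244 recomputed gene differences, 243 moved by less than 0.15, the pooled SD between probe sets of 1 gene. ERO1B, 1.45 with a pseudocount and then under 3-fold, was the exception. Many of the 244 could not move. The level filter only drops genes, and the brightest probe set can change P4HB alone. The added probe sets left the differences of the 35 genes as they were, and median centring moved every gene by the same amount. No paired analysis was possible because there was 1 array per line. No replicate could be left out, and spread between cultures is unknown. Low values such as that of ERO1B in EBC1 are not separated from background.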

Other observations

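The exact ERSE or ERSE-II also stood in promoter windows of genes outside the list, and 25 of these were measured. This set was drawn up after the values of the 38 genes were seen. Of the 25 genes, 15 were higher in EBC1-R, compared with 43.3% of all genes and 49.1% of those with a mean level of at least 7.28. At least 2-fold higher was 1 gene, compared with 1.26% of all genes, and the median difference was 0.13. The genes named next had the largest increases of the 25, while the lowest differences were in NAV2 (-0.42) and FRG2C (-0.32). TRIM5, an antiviral restriction factor, was at 7.85 and 8.85, or 2.01-fold higher. FICD, the ER enzyme that attaches AMP to BiP, was at 9.57 and 10.51, or 1.92-fold higher. EIF2A, a translation initiation factor, was 1.89-fold higher (10.03 and 10.95), and ALG12, a mannosyltransferase of glycan assembly in the ER, was 1.72-fold higher (8.16 and 8.95).

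Some of these matches are shared between neighbours. Any shared matches on 1 chromosome were left out after the search, so those given here may not be all. The ERSE of CRELD2 lies in the window of ALG12 as well, and these genes were 2.83-fold and 1.72-fold higher. A single ERSE on chromosome 3 lies in the windows of both EIF2A and SERP1, a stress-associated ER membrane protein, which differed by 0.92 and 0.29. An ERSE-II on chromosome 19 lies in the windows of both GYS1 and RUVBL2, which differed in opposite directions, by 0.31 and -0.21. Genes with 1 match in common thus differed by unequal amounts, and no match was tested for function here.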
